A study of Mus musculus with 16 samples.

Results

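The enzymes of serine synthesis and of folate-dependent one-carbon metabolism were followed by RNA-seq in foetal liver erythroblasts of mice that carry 2, 1 or no working copies of *Nprl3*. The members are 10 genes, chosen by name from the 55416 genes of the count table: *Phgdh*, *Psat1*, *Psph*, *Shmt1*, *Shmt2*, *Mthfd1*, *Mthfd1l*, *Mthfd2*, *Mthfd2l* and *Aldh1l2*. The libraries came from E13.5 embryos, of which 4 were wild-type (WT), 2 heterozygous (Het) and 2 homozygous for a constitutive deletion of the *Nprl3* promoter (*Nprl3*-/-, KO), all on a C57BL/6J background. From each foetal liver, erythroblasts were sorted on the surface proteins Ter119 and CD71 at stage 1 (S1, the immature gate) and stage 3 (S3, basophilic erythroblasts), which gave 16 libraries, 1 for each embryo and stage. The deletion is in every cell of the embryo and not only in the erythroid lineage, KO embryos die before birth, and the α-globin enhancers inside *Nprl3* are intact in all groups. WT embryos 1 and 5 and KO embryo 2 were female, and WT embryos 0 and 8, KO embryo 9 and Het embryos 3 and 4 were male, as assigned by the study from reads of the Y chromosome. The source fields of the sample labels name an embryonic stem cell line, but the titles give foetal liver and the libraries held late erythroid transcripts, so the titles were followed.

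Serine can be made from the glycolytic intermediate 3-phosphoglycerate in a short pathway. The dehydrogenase *Phgdh* opens it, the aminotransferase *Psat1* carries out the middle step and the phosphatase *Psph* releases serine. Serine hydroxymethyltransferases then split serine into glycine and a one-carbon unit bound to folate, in the cytosol by *Shmt1* and in mitochondria by *Shmt2*. The mitochondrial enzymes *Mthfd2*, *Mthfd2l* and *Mthfd1l* oxidise that unit to formate, the cytosolic *Mthfd1* takes formate up again for purine and thymidylate synthesis, and the mitochondrial *Aldh1l2* can burn the unit to carbon dioxide. Nprl3 is a subunit of GATOR1, a brake on the kinase complex mTORC1 that is applied when amino acids are scarce. In other cells, mTORC1 and the stress-induced transcription factor ATF4 are known to drive many of these enzymes, and glycine made by the SHMT reaction is a substrate of haem synthesis, the major biosynthetic task of an erythroblast.

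The promoter sequence of the 3 serine synthesis genes, of which both KO libraries were above all WT libraries at S3, and of *Mthfd2*, the member that rose with maturation, is given here. Each sequence is the 250 bases upstream of a RefSeq transcript start, read 5′ to 3′ on the strand of the gene and located by an exact and single match to GRCm39 (mm39). Capitals mark the CCAAT box (CCAAT, or ATTGG on the other strand) and the GC box (GGGCGG, or CCGCCC on the other strand), common promoter elements. The windows are chr3:98247286-98247535 (minus strand) for *Phgdh*, chr19:15902424-15902673 (minus strand) for the second of the 2 starts listed for *Psat1*, chr5:129864318-129864567 (minus strand) for *Psph* and chr6:83294587-83294836 (minus strand) for *Mthfd2*.
Phgdh: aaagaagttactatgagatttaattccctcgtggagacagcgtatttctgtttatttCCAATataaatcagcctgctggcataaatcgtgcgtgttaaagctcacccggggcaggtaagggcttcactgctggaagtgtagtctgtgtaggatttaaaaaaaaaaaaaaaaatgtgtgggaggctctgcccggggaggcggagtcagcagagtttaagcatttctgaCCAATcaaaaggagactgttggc
Psat1: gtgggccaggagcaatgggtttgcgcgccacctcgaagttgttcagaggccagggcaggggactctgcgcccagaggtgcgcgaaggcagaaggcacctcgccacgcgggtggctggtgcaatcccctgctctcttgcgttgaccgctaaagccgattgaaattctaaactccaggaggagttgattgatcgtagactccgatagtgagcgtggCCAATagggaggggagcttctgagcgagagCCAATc
Psph: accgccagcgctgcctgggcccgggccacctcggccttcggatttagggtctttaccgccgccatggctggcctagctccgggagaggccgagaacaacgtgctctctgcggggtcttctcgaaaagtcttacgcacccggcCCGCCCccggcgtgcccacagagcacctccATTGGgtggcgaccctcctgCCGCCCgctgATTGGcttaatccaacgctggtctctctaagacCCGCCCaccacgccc
Mthfd2: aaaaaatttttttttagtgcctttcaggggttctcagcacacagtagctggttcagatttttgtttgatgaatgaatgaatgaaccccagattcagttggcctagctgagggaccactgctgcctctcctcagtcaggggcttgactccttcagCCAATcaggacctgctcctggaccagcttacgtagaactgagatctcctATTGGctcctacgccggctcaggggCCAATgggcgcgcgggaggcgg
The core of the element bound by C/EBP and ATF proteins, ATF4 among them (TGATGNAA, where N is any base), was searched on both strands in windows of 300 bases that run from 250 bases before to 50 bases after each start. It occurred in none of the windows of the 9 members with a window in the table, against 4.51% of the 27025 genes of the table, and the E-box CACGTG also occurred in none, against 8.09%. The CCAAT box occurred in 6 of the 9 members (*Phgdh*, *Psat1*, *Psph*, *Shmt1*, *Mthfd1* and *Mthfd2*), against 41.1% of all genes, and the GC box in 6, against 38.2%. These last 2 motifs were added after the first 2 had been searched. A match is a match of letters only, and sites outside these windows were not searched.

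The libraries held between 23331156 and 36035368 counted read pairs at S1 and between 20666044 and 37609502 at S3. Globin transcripts took 0.0739% to 1.07% of the counts at S1 and, at S3, 10.8% to 11.8% in WT, 11.6% and 11.9% in Het and 10.0% and 10.6% in KO. *Nprl3* itself had 22.6 to 32.6 CPM (counts per 1000000 of the TMM-scaled library total) in the WT S1 libraries, 12.8 ± 0.231 in Het (SD, n = 2) and 0.319 and 0.676 in KO. At S3 it had 145.6 to 203.5 CPM in WT, 117.7 and 146.2 in Het and 106.6 and 110.6 in KO, where transcripts that start at the α-globin enhancers also cover the gene, so that S3 counts do not check the label. The S1 libraries of WT embryos 0 and 8 stood apart, with 1.07% and 1.00% globin counts against at most 0.306% in the other S1 libraries, and with a summed level of 9 neutrophil granule and myeloid genes of 204 and 116 CPM against at least 1153 CPM. Markers of other cells were present at a low level in the S3 libraries. The 12 macrophage genes summed to 40.6 to 89.1 CPM in WT, 44.1 to 58.8 in Het and 19.3 to 34.0 in KO, and the 12 hepatoblast genes to 241.4 to 1017 CPM in WT, 166.6 to 217.7 in Het and 108 to 262 in KO. The 8 late erythroid genes, globins among them, summed to 114500 to 133900 CPM in WT, 112900 and 126500 in Het and 95810 and 100000 in KO, so that both KO libraries were below every WT and Het library, as they were in the globin share. None of the markers of these 3 lists was at 0 in all libraries of a group.

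In WT S1 erythroblasts *Phgdh* was the most abundant member per length of transcript, and in WT S3 erythroblasts *Mthfd2* and *Shmt2* were. Levels of different genes were compared as CPM per kilobase of exon. At S1, *Phgdh* had 168 ± 18.6 CPM per kilobase (SD, n = 4), followed by *Shmt2* with 120 ± 16.7, *Psat1* with 92.3 ± 6.03 and *Mthfd1* with 92.2 ± 25.4. The lowest *Phgdh* library was above the highest *Shmt2* library, while the libraries of *Shmt2*, *Psat1* and *Mthfd1* overlapped along this order. *Mthfd2* had 40.2 ± 6.14 CPM per kilobase and lay between these and a group of 3 members whose libraries overlapped along the order, *Shmt1* (18.5 ± 3.17), *Psph* (16.6 ± 2.96) and *Mthfd1l* (14.4 ± 5.05). *Mthfd2l*, the less abundant relative of *Mthfd2*, had 2.68 ± 0.632 CPM per kilobase. At S3 the order was *Mthfd2* (117 ± 10.8 CPM per kilobase), *Shmt2* (96.6 ± 14.4), *Phgdh* (51.0 ± 8.71), *Mthfd1* (18.6 ± 3.28), *Psat1* (16.6 ± 4.18), *Mthfd1l* (12.1 ± 0.963), *Psph* (9.64 ± 3.35), *Shmt1* (2.53 ± 0.416) and *Mthfd2l* (0.642 ± 0.111). *Mthfd2* and *Shmt2* overlapped, *Phgdh* was below every library of both, and the neighbours from *Mthfd1* to *Psph* overlapped in turn.

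*Aldh1l2* was at or under a limit of 3 read pairs in all libraries but 1. It had 5 read pairs in the S1 library of Het embryo 4 (0.144 CPM, against 0.0862 CPM for 3 read pairs in that library), 1 in the S1 libraries of WT embryo 1, Het embryo 3 and KO embryo 9, 1 in the S3 library of KO embryo 9, and 0 in all others. Over all libraries the limit corresponds to 0.0616 to 0.207 CPM, and it covers counting error only. *Aldh1l2* did not pass the filter on low counts in any comparison, so that the tests concern 9 of the 10 members. In addition, 14.1% of its exon sequence overlaps *Nopchap1* on the other strand, and the counting did not use strand.

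**Figure D1:**
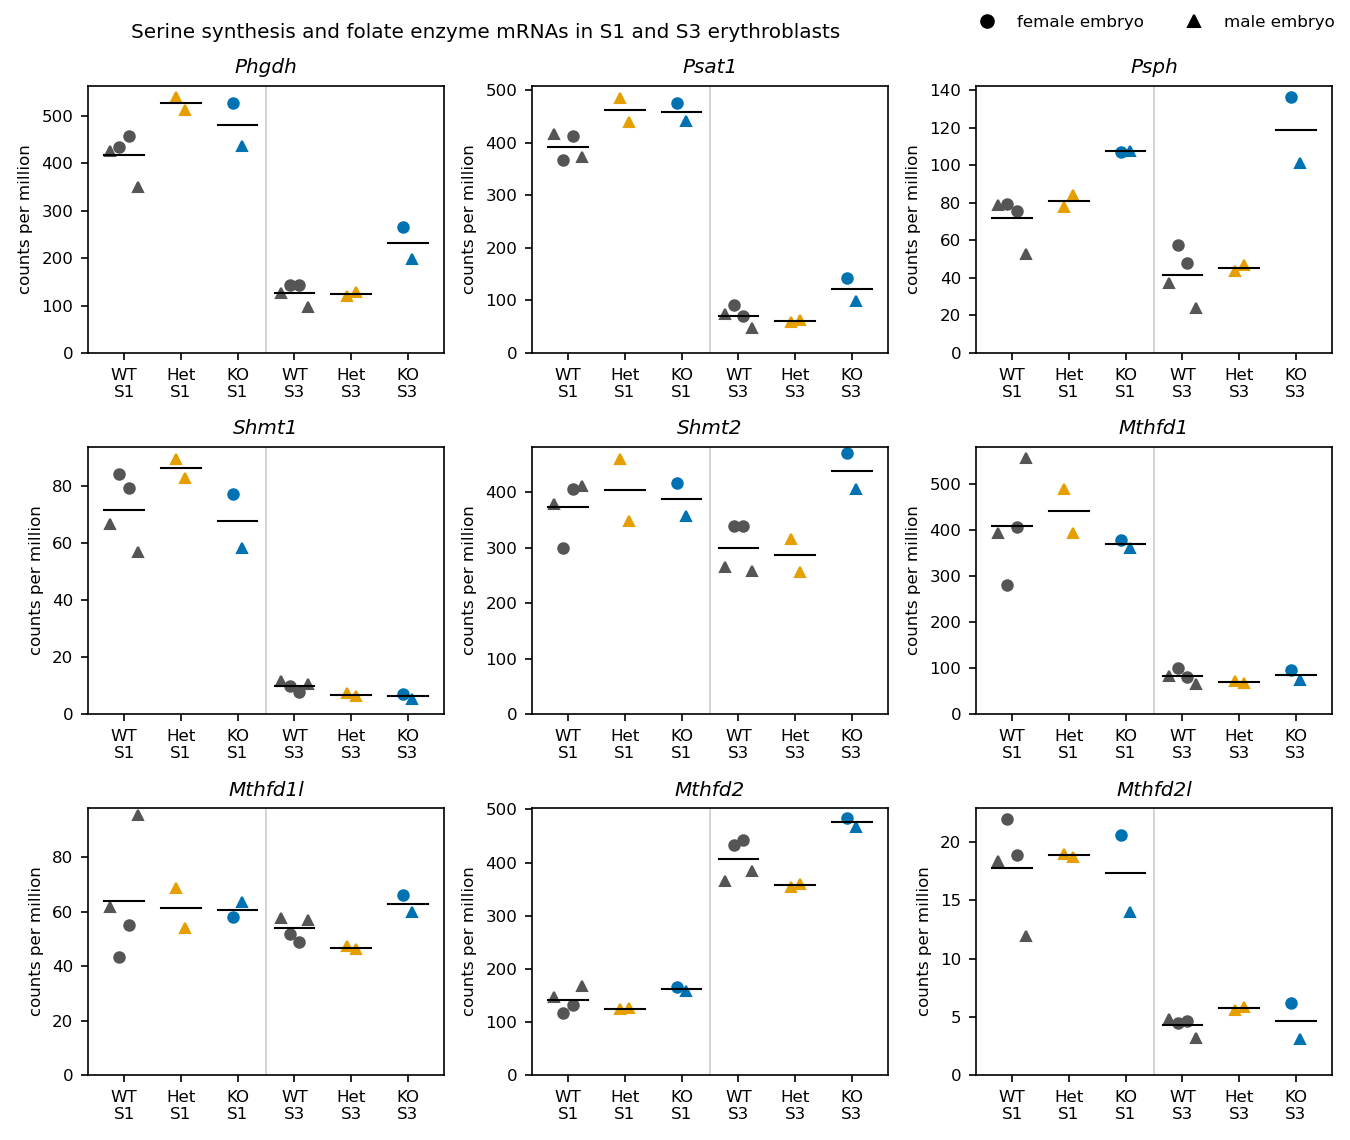
CPM (y axis, linear, from 0) of the 9 expressed members in each library, by genotype and stage (x axis). Circles are female and triangles male embryos, and black lines are group means. At S3 both KO libraries lie above all 4 WT libraries in *Phgdh*, *Psat1*, *Psph*, *Shmt2*, *Mthfd1l* and *Mthfd2*, and *Mthfd2* is the member that is higher at S3 than at S1 in all WT embryos.

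Maturation of WT cells from S1 to S3 went with a rise of the mitochondrial *Mthfd2* and a fall of the cytosolic *Shmt1* and *Mthfd1* and of all 3 serine synthesis genes. Of the 9 members tested, *Mthfd2* rose and 6 fell at an adjusted p under 0.05, against 30.6% of all 13514 tested genes called higher and 35% called lower (quasi-likelihood test of edgeR, p adjusted by the Benjamini-Hochberg method, n = 4 embryos at each stage). *Mthfd2*, the mitochondrial dehydrogenase and cyclohydrolase, had 146.6, 117, 132 and 167 CPM in the S1 libraries of WT embryos 0, 1, 5 and 8, and 365, 434, 442 and 384 CPM in their S3 libraries. The ranges do not overlap, and the log2 fold change was 1.59 (standard error, SE, 0.15, adjusted p = 7.75e-06, edgeR). *Shmt1*, the cytosolic hydroxymethyltransferase, went from 66.6, 84.2, 79.1 and 56.9 CPM to 11.5, 9.67, 7.66 and 10.4 CPM in the same order of embryos. It fell by 2.80 on the log2 scale (SE 0.19), the steepest fall among the members, while its mitochondrial relative *Shmt2* had a log2 fold change of −0.26 (SE 0.15, adjusted p = 0.157, edgeR). Without WT embryo 1 *Shmt2* was called lower (log2 fold change −0.41, adjusted p = 0.0467), and without WT embryo 8 its log2 fold change was −0.11 (adjusted p = 0.603). The 9 neutrophil granule and myeloid genes summed to 115.9 to 1377 CPM in the WT S1 libraries and 1.11 to 4.78 CPM at S3. In the same embryos the hepatoblast sum was 68.4 to 393 CPM at S1 and 241.4 to 1017 CPM at S3. The macrophage sum was 17.4 to 41.5 CPM at S1 and 40.6 to 89.1 CPM at S3. The part of these markers in the stage differences was not tested.

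Among the other members, 4 fell, with log2 fold changes of −2.42 for *Psat1* (SE 0.18), −2.25 for *Mthfd1* (SE 0.22), −1.99 for *Mthfd2l* (SE 0.22) and −1.66 for *Phgdh* (SE 0.15), in each case with every S3 library below every S1 library of WT. Counting these and *Shmt1*, 5 of 9 members had all S3 libraries below all S1 libraries, against 32.8% of all genes tested, and 1 (*Mthfd2*) had them all above, against 27.6%. *Psph* was the least affected of the 3 serine synthesis genes. It had 78.9, 79.4, 75.7 and 52.6 CPM at S1 and 37.4, 57.6, 48.1 and 23.9 CPM at S3 in WT embryos 0, 1, 5 and 8, so that embryo 8 at S1 overlapped the S3 range. It fell by 0.72 on the log2 scale (SE 0.24, adjusted p = 0.0214, edgeR), and this call was lost without embryo 0 (adjusted p = 0.118) and without embryo 5 (adjusted p = 0.0617). The adjusted p of *Psph* ranged from 9.16e-05 to 0.118 over all settings tried. *Mthfd1l*, the mitochondrial formate-releasing synthetase, had 43.2 to 95.5 CPM at S1 and 48.9 to 57.8 CPM at S3 and did not pass the test (log2 fold change −0.19, SE 0.23).

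The size of these stage differences depends on the scaling. TMM scaling centred the log2 fold changes of all 13514 genes at a median of −0.08, whereas scaling to total counts alone moved that median to −1.15. On the latter scale *Mthfd2* still rose (log2 fold change 0.56, adjusted p = 0.00908, edgeR) and all 8 other members fell, including *Shmt2* (−1.29) and *Mthfd1l* (−1.23), with 13.3% of all genes called higher and 64.3% lower. In these bulk samples fewer cells of a type and less RNA per cell cannot be told apart. The fits with the embryo as a block and without the 2 WT embryos whose S1 libraries held the most globin called the same 7 members as the fit reported here, 1 higher and 6 lower. With 1 embryo left out, 6 to 8 members were called. Of all genes, 25.8%, 29.4%, 25.3% and 31.7% were then called higher without WT embryos 0, 1, 5 and 8, and 31.1%, 32.6%, 29.4% and 33.7% lower. The block called 33.3% of all genes higher and 36.3% lower, and the fit without the globin-rich embryos 28.9% and 33.5%.

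**Figure D2:**
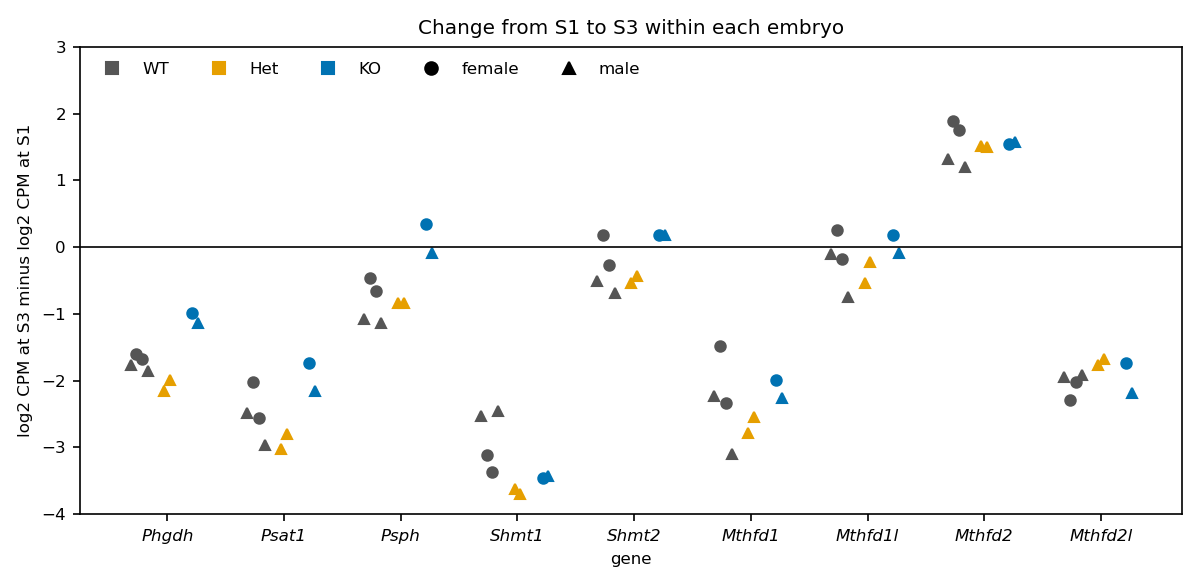
Change from S1 to S3 within each embryo (y axis, log2 CPM at S3 minus log2 CPM at S1) for the 9 expressed members (x axis). Colours give the genotype, circles female and triangles male embryos. *Mthfd2* is above 0 in all 8 embryos, and *Psph* and *Phgdh* are higher in both KO embryos than in the 6 others. The share of all genes with such a separation was not counted.

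The KO S3 erythroblasts had more mRNA of all 3 serine synthesis enzymes and of the mitochondrial *Shmt2* than WT S3 erythroblasts, by factors of 1.52 to 2.98, but none of the members passed the correction over all genes in the test reported here. This comparison asks whether the loss of *Nprl3* alters mRNA levels of these enzymes at the stage when cells fill with haemoglobin. Metabolites were not part of these data. In Ter119+ cells of E13.5 foetal livers, the study found amino acid concentrations unaltered in KO. Both KO libraries were also the lowest S3 libraries in the late erythroid sum and in the globin share given above. They were the lowest in the macrophage sum too, with 34.0 and 19.3 CPM in KO embryos 2 and 9 against at least 40.6 CPM in WT and 44.1 in Het, while the hepatoblast sums of KO and WT overlapped. The part of these marker differences in the member values was not tested. *Psph*, the phosphatase of the final step, had 37.4, 57.6, 48.1 and 23.9 CPM in WT embryos 0, 1, 5 and 8 and 137 and 101 CPM in KO embryos 2 and 9. Both KO libraries were above every WT library, and the fold change was 2.98 (log2 1.57, SE 0.28, adjusted p = 0.0617, edgeR). Of the exon sequence of *Psph*, 10.4% overlaps the chaperonin gene *Cct6a* on the other strand.

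*Phgdh*, the entry enzyme, had 126, 142, 143 and 96.6 CPM in WT embryos 0, 1, 5 and 8 and 265 and 199 CPM in KO embryos 2 and 9. The groups did not overlap, and the log2 fold change was 0.93 (SE 0.17, adjusted p = 0.0697, edgeR). *Psat1*, the aminotransferase between them, had 74.0, 91.0, 69.8 and 47.8 CPM in WT and 143 and 98.6 CPM in KO, in the same order. KO embryo 9 lay just above WT embryo 1, and the log2 fold change was 0.84 (SE 0.23, adjusted p = 0.233, edgeR). *Shmt2* had 266, 339, 339 and 257 CPM in WT and 471 and 407 CPM in KO. The groups did not overlap, with a log2 fold change of 0.61 (SE 0.15, adjusted p = 0.173, edgeR).

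Among the other folate enzymes, *Mthfd2* had 365 to 442 CPM in the WT libraries and 484 and 468 CPM in KO, a log2 fold change of 0.29 (SE 0.13). *Mthfd1l* had 48.9 to 57.8 CPM in WT and 66.0 and 60.0 CPM in KO (log2 fold change 0.28, SE 0.14). The cytosolic *Mthfd1* (log2 fold change 0.10, SE 0.17) and *Mthfd2l* (0.17, SE 0.31) had KO libraries within or across the WT range. *Shmt1* was lower in both KO libraries than in all WT libraries. It had 11.5, 9.67, 7.66 and 10.4 CPM in WT embryos 0, 1, 5 and 8 and 7.03 and 5.40 CPM in KO embryos 2 and 9, a log2 fold change of −0.60 (SE 0.24, adjusted p = 0.502, edgeR). The hepatoblast markers were also lower in KO than in most WT libraries, as given above, and their part in the *Shmt1* value was not tested.

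Counted over the 9 members tested, 0 had an adjusted p under 0.05, against 0.559% of the 11804 genes tested, and 6 had an unadjusted p under 0.05 (*Psph*, *Phgdh*, *Shmt2*, *Psat1*, *Shmt1* and *Mthfd2*), against 8.52%. Both KO libraries were above all 4 WT libraries in 6 members, against 6.57% of all genes, and below them in 1, against 12.1%. The median log2 fold change of the 9 members was 0.29, and that of all genes was 0.0072. *Phgdh*, *Psat1*, *Psph* and *Shmt2* belong to a set that the study itself reported, on these libraries, as significantly upregulated in KO at S3. The study used DESeq2 with an adjusted p threshold of 0.05, and DESeq2 called these genes here too, as given below. Their direction here is therefore not independent evidence.

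**Figure D3:**
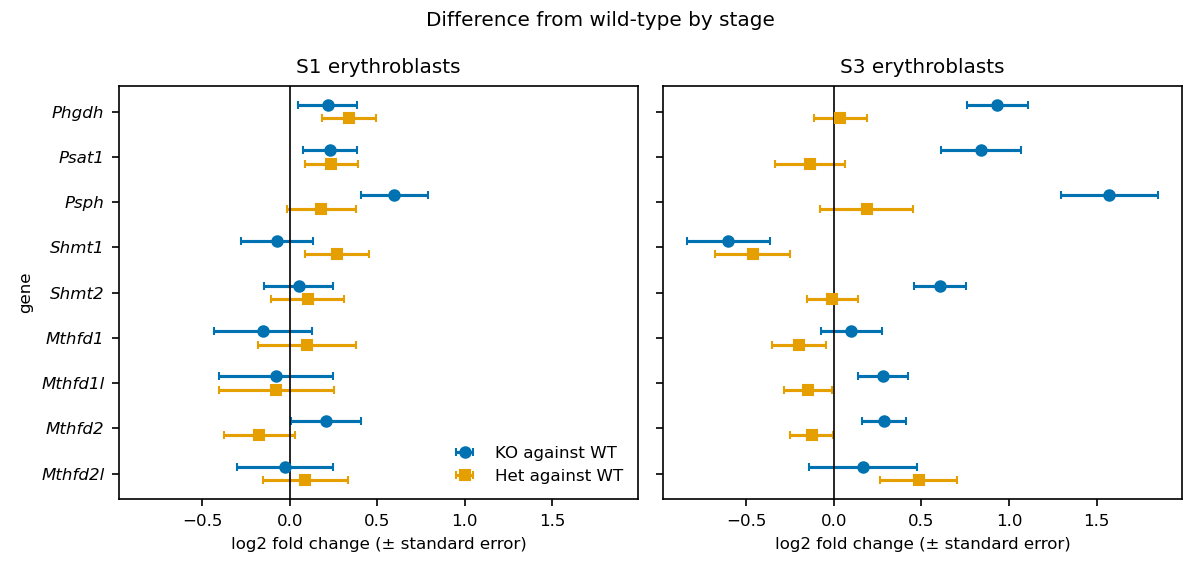
Log2 fold change against WT (x axis, bars ± SE, from edgeR) for the 9 expressed members (y axis) at S1 (left) and S3 (right), for KO (blue circles) and Het (orange squares). At S3 the KO values of *Psph*, *Phgdh*, *Psat1* and *Shmt2* run from 0.61 to 1.57, and the Het values of the same genes from −0.14 to 0.19.

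Whether these 4 genes passed the threshold depended on the model. DESeq2 called *Phgdh*, *Psat1*, *Psph* and *Shmt2* higher in KO (2.19% of all genes called), as did edgeR with sex as a covariate (4.63%), DESeq2 with sex as a covariate (6.18%) and edgeR without the filter on low counts (1.52% of 23389 genes). With all 16 libraries in 1 fit, *Phgdh* and *Psph* were called (0.776% of all genes), and with the newer quasi-likelihood method of edgeR *Psph* alone was (0.644%). None of the members was called with median-of-ratios size factors (0.5% of all genes), when globin genes were ignored in the scaling (0.559%) or with scaling to total counts (0.542%). None was called when any 1 embryo was left out either, where few genes were called at all: 0.326% of genes without KO embryo 2, 0.357% without KO embryo 9, and 0.0944%, 0.229%, 0.359% and 0.0921% without WT embryos 0, 1, 5 and 8. Over all these settings the log2 fold change of *Psph* stayed between 1.35 and 1.77, that of *Phgdh* between 0.72 and 1.12, that of *Psat1* between 0.56 and 1.07 and that of *Shmt2* between 0.51 and 0.70. The lowest of these values are those without KO embryo 2.

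**Figure D4:**
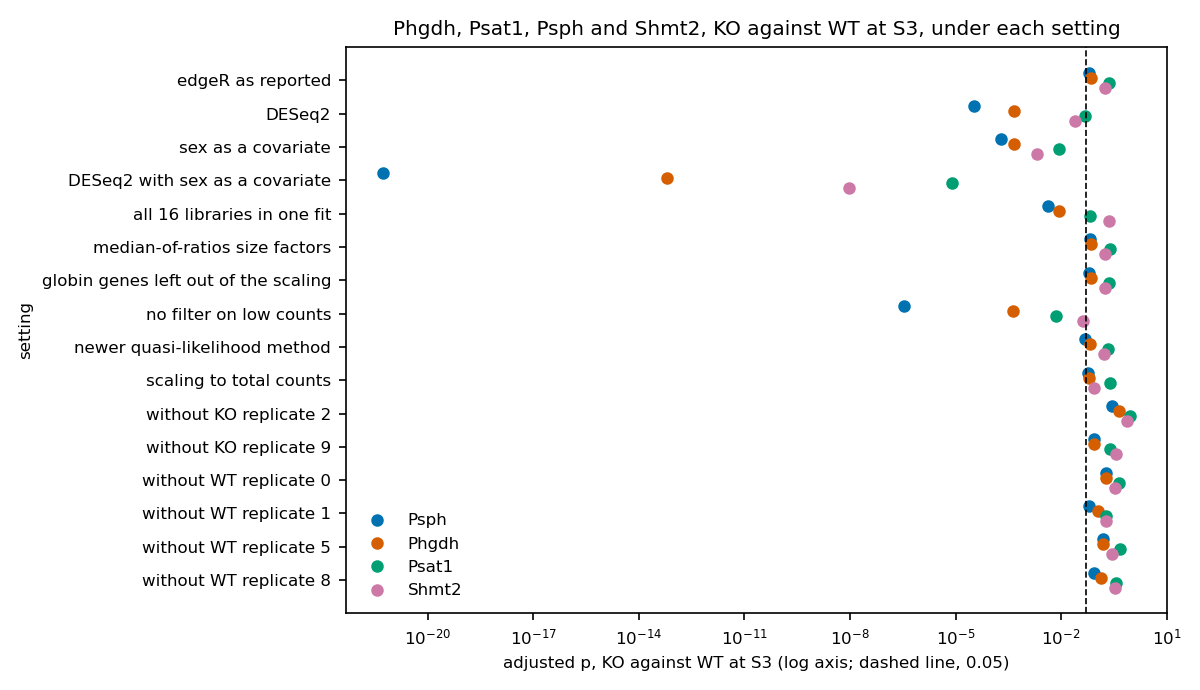
Adjusted p (x axis, log scale) of *Psph*, *Phgdh*, *Psat1* and *Shmt2* in KO against WT at S3, under the model reported and each alternative (y axis). The dashed line marks 0.05. For *Psph* the adjusted p runs from 5.39e-22 in DESeq2 with sex as a covariate to 0.27 without KO embryo 2.

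Both female WT libraries were above both male WT libraries in 4 of the 9 members (*Phgdh*, *Psph*, *Shmt2* and *Mthfd2*), against 34% of all genes tested, and below them in 2 (*Shmt1* and *Mthfd1l*), against 26.4%, shares near those of all genes. The male WT embryos are also the 2 with the most globin at S1 and, at S3, with the highest summed hepatoblast level (1017 and 602 CPM), so that sex and other properties of these embryos cannot be told apart. Within each sex the KO embryo lay on the same side of WT in the genes that follow. *Psph* had 137 CPM in the female KO embryo against a mean of 52.9 CPM in the 2 female WT embryos (log2 difference 1.37), and 101 CPM in the male KO embryo against 30.6 CPM in the 2 male WT embryos (log2 difference 1.72). The corresponding log2 differences were 0.90 in females and 0.84 in males for *Phgdh*, 0.83 and 0.70 for *Psat1*, 0.47 and 0.64 for *Shmt2* and −0.30 and −1.02 for *Shmt1*. With 1 KO embryo of each sex, these values have no test. *Mthfd2l* went in opposite directions in the 2 sexes (0.43 and −0.36).

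At S1 both KO libraries were above all WT libraries in *Psph* and *Psat1*, and no member passed the correction over all genes. The summed neutrophil granule and myeloid genes had 1622 and 1700 CPM in KO embryos 2 and 9, 1570 and 1563 CPM in Het embryos 3 and 4 and 204, 1377, 1153 and 115.9 CPM in WT embryos 0, 1, 5 and 8. Every KO and Het library was above every WT library in this sum, and its part in the KO and Het values at S1 was not tested. *Psph* had 78.9, 79.4, 75.7 and 52.6 CPM in WT embryos 0, 1, 5 and 8 and 107.3 and 107.7 CPM in KO embryos 2 and 9, which is above every WT library (log2 fold change 0.60, SE 0.19, unadjusted p = 0.0156, edgeR). *Psat1* had 367.9 to 416 CPM in WT and 476 and 441 CPM in KO, also without overlap (log2 fold change 0.23, SE 0.15). *Phgdh* had 350.1 to 457 CPM in WT and 526 and 436 CPM in KO (log2 fold change 0.22, SE 0.17), and *Shmt2* 299.4 to 412 CPM in WT and 416 and 358 CPM in KO (0.05, SE 0.20). None of the 9 members had an adjusted p under 0.05, against 0.00712% of 14039 genes tested (1 gene), and 1 member had an unadjusted p under 0.05, against 2.53%. In 2 members both KO libraries were above all WT libraries, against 6.17% of genes, and in 0 below, against 3.75%. DESeq2 also called 0 members, against 0.321% of genes. Without WT embryos 0 and 8, whose S1 libraries stood apart, 2 members had an unadjusted p under 0.05, against 2.73% of genes, and 0 an adjusted one.

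The difference between the stages in the KO effect was tested directly as an interaction, and 0 of the 9 members passed at an adjusted p under 0.05, against 0.00742% of 13485 genes. *Phgdh* and *Psph* had an unadjusted p under 0.05, against 3.11% of genes. Their KO effect was larger at S3 than at S1 by 0.71 (SE 0.25, adjusted p = 1, edgeR) and 0.97 (SE 0.38, adjusted p = 1) on the log2 scale. With the embryo as a block these estimates were 0.71 and 1.00, with an adjusted p of 0.68 for both, and DESeq2 called 0 members, against 0.089% of genes. Within embryos, *Psph* changed from S1 to S3 by −1.08, −0.46, −0.65 and −1.14 on the log2 scale in WT embryos 0, 1, 5 and 8, by −0.83 and −0.84 in Het embryos 3 and 4, and by 0.35 and −0.09 in KO embryos 2 and 9. *Phgdh* changed by −1.86 to −1.61 in WT, −2.16 and −1.99 in Het and −0.99 and −1.13 in KO. In both genes the KO embryos lay above all 6 others. How many of all genes do so was not counted, so that this separation is a description only. *Psat1* changed by −2.96 to −2.02 in WT and −1.73 and −2.16 in KO, with KO embryo 9 inside the WT range. *Mthfd2* changed by 1.20 to 1.90 in WT and 1.55 and 1.57 in KO, and its interaction estimate was 0.08 (SE 0.25).

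The Het libraries lay inside the WT range in the serine synthesis genes at S3. *Psph* had 43.7 and 47.1 CPM in Het embryos 3 and 4, inside the WT range of 23.9 to 57.6 CPM (log2 fold change 0.19, SE 0.27). *Phgdh* had 121 and 129 CPM (0.04, SE 0.15), *Psat1* 59.8 and 63.1 CPM (−0.14, SE 0.20) and *Shmt2* 316.5 and 257 CPM (−0.0073, SE 0.15), all inside the WT range but for *Shmt2*, whose lower value was just under the lowest WT library. *Shmt1* had 7.28 and 6.40 CPM, below every WT library as in KO (log2 fold change −0.46, SE 0.22, adjusted p = 0.901, edgeR). The hepatoblast sum was also below every WT library in Het, with 166.6 and 217.7 CPM against 241.4 to 1017 CPM in WT. Its part in the *Shmt1* value was not tested. None of the members was called, against 0% of 11746 genes (0 genes), and 0 members had an unadjusted p under 0.05, against 3.18% of genes. DESeq2 called 0 members as well, against 0.00851% of genes (1 gene). Het libraries were above all WT libraries in 1 member (*Mthfd2l*), against 2.39% of genes, and below in 3 (*Shmt1*, *Mthfd1l* and *Mthfd2*), against 12.5%.

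Both Het embryos were male, and models that took sex into account gave another picture of all genes. With no female Het embryo, the Het estimate in these models rests on the male WT embryos 0 and 8, whose S1 libraries stood apart. At S3 their hepatoblast sums were 1017 and 602 CPM, against 166.6 and 217.7 CPM in Het embryos 3 and 4. Genotype and other properties of these embryos cannot be told apart here. With sex as a covariate edgeR called 18.1% of genes between Het and WT at S3, DESeq2 with sex as a covariate called 18.3%, and edgeR with only the male WT embryos called 20.7%. In each of these fits 2 of the 9 members were called, *Psph* as higher in Het (log2 fold change 0.59 in edgeR with sex as a covariate, adjusted p = 0.036) and *Shmt1* as lower (−0.66, adjusted p = 0.0389), a share close to that of all genes. The adjusted p of *Psph* in Het ranged from 0.0073 to 1 and that of *Shmt1* from 0.0329 to 1 over all settings. At S1, *Phgdh* had 540.4 and 511.8 CPM in Het against 350.1 to 457 CPM in WT (log2 fold change 0.34, SE 0.15, adjusted p = 0.905, edgeR), and *Psat1* 486 and 440.4 CPM against 367.9 to 416 CPM (0.24, SE 0.15). These were the 2 members with Het libraries above all WT libraries, against 8.68% of genes, and 0 were below, against 9.3%. None was called by edgeR, against 0% of 13818 genes (0 genes), or by DESeq2, against 0.217%, and 0 members had an unadjusted p under 0.05, against 4.26% of genes.

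Summed over transcripts per length, the folate enzymes were more mitochondrial at S3 than at S1 in all genotypes, although the mitochondrial *Mthfd2l* fell. The mitochondrial share was taken as the summed CPM per kilobase of *Shmt2*, *Mthfd1l*, *Mthfd2* and *Mthfd2l* in percent of these 4 plus the cytosolic *Shmt1* and *Mthfd1*. It went from 61.8% ± 1.72 at S1 to 91.4% ± 1.06 at S3 in WT (SD, n = 4), from 60.0% ± 0.393 to 92.3% ± 0.144 in Het and from 65.0% ± 0.369 to 93.4% ± 0.62 in KO (SD, n = 2 each). The mitochondrial sum itself was 178 ± 25.4 CPM per kilobase at S1 and 226 ± 24.02 at S3 in WT on the TMM scale, while the cytosolic sum was 111 ± 22.6 and 21.1 ± 3.26. The direction of the mitochondrial sum depends on the scaling: per 1000000 total counts it was 248 ± 48.1 per kilobase at S1 and 161 ± 13.2 at S3 (SD, n = 4). The share does not depend on it. In KO S3 libraries the mitochondrial sum was 279 and 306 CPM per kilobase, above the highest WT library (248), whereas the cytosolic sum of 18.3 and 23.1 lay within the WT range of 17.3 to 25.2. The log2 ratio of *Shmt2* to *Shmt1* per length was 2.71 ± 0.426 at S1 and 5.26 ± 0.438 at S3 in WT, and 2.85 ± 0.131 and 6.47 ± 0.119 in KO. At S3 this ratio was 6.39 and 6.56 in the KO libraries, 5.65 and 5.76 in Het and 4.85 to 5.79 in WT. The sum of the 3 serine synthesis genes was 77.3 ± 15.7 CPM per kilobase in WT S3 libraries, with a highest library of 91.9, against 127 and 172 in KO and 72.7 and 77.4 in Het. These sums and ratios are descriptions without a test.

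**Figure D5:**
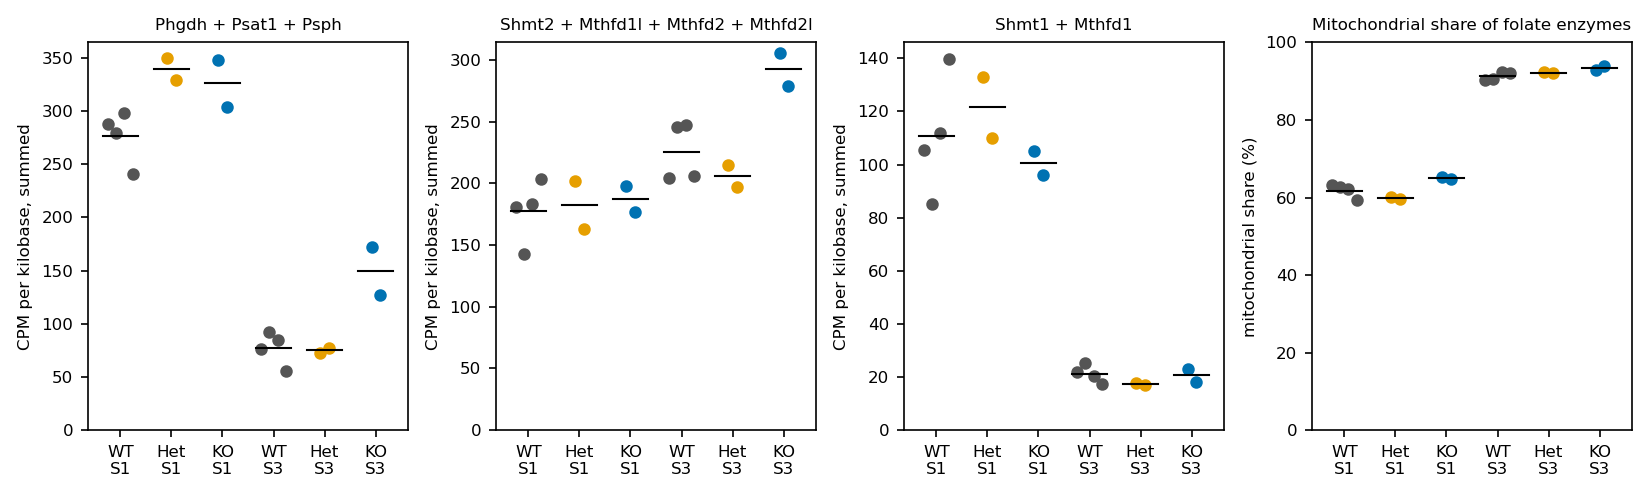
Summed CPM per kilobase of exon (y axes of the 3 left panels, from 0) of the serine synthesis, mitochondrial folate and cytosolic folate genes, and the mitochondrial share in percent (right panel), by genotype and stage (x axes). Points are libraries and black lines group means. The share is 59.3% to 65.3% at S1 and 90.4% to 93.9% at S3.

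The genes whose pattern was most like that of serine synthesis were sought over the 16 libraries among 9046 genes, by Pearson's r with the mean log2 CPM of *Phgdh*, *Psat1* and *Psph*, each less its stage mean. The 3 genes that make up the mean had r of 0.96 to 0.98. Among non-members the highest values were 0.93 for *Brd3*, 0.93 for *Shisa5*, 0.93 for *Tsc22d3*, 0.92 for *Bid* and 0.92 for *Jmjd6*. *Brd3* encodes a bromodomain protein and *Bid* a pro-apoptotic BCL2-family protein, and *Tsc22d3* encodes the glucocorticoid-induced leucine zipper. In KO against WT at S3, these 5 genes had log2 fold changes of 0.37, 2.93, 1.77, 0.90 and 0.50 in the order given. They were chosen for their likeness over the same libraries, so that these values are a description with no test. Among the other members, *Shmt2* had an r of 0.76, *Mthfd2* of 0.49, and *Shmt1* of −0.34. All these correlations share the same libraries and depths and have no test.

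The genes around the pathway were described from lists of 16 genes of the folate cycle and folate transport, 4 of glycine cleavage, 8 of the methionine cycle and 12 of serine transport and use. In KO against WT at S3, 0 of the 33 tested genes of these lists were called (0 of 13, 3, 7 and 10), and 6 had an unadjusted p under 0.05, against 8.52% of all genes tested. Of the 10 tested genes of serine transport and use, 7 had a log2 fold change above 0, and the median was 0.17. The 3 with an unadjusted p under 0.05 had positive values. The mitochondrial serine transporter family members *Sfxn3* and *Sfxn2* had 4.68 and 6.15 CPM in KO against 1.78 to 3.46 in WT, and 11.9 and 20.1 CPM against 7.38 to 11.1 (log2 fold changes 1.04, SE 0.31, and 0.75, SE 0.24). *Slc1a4*, a plasma membrane carrier of serine and other neutral amino acids, had 11.8 and 13.9 CPM in KO against 6.21 to 11.2 in WT (0.74, SE 0.26). In all 3 the KO libraries lay above all WT libraries, with adjusted p of 0.291, 0.328 and 0.394 (edgeR). Over all genes tested, 6.57% had such a separation. The 3 were named for the smallest p of the list in this comparison, so that their separation is not independent evidence. The 3 genes of this list with values under 0 were *Slc1a5*, a carrier of glutamine and other neutral amino acids, with 854 and 946.5 CPM in KO against 907 to 1371 in WT (log2 fold change −0.27, SE 0.19), and the phosphatidylserine synthases *Ptdss1* (−0.08, SE 0.14) and *Ptdss2* (−0.03, SE 0.12). *Sfxn1*, of the same family as *Sfxn2* and *Sfxn3* and at a higher level, had 171.5 to 258.8 CPM in KO, within the WT range of 158.1 to 270.7. *Sfxn1*, *Slc1a5*, *Ptdss1* and *Ptdss2* were named after their values were seen.

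The genes with the smallest p in the other lists were mostly liver enzymes at low level. *Ftcd*, *Aldh1l1* and *Ggh* of the folate list had log2 fold changes of −1.62 (SE 0.57), −1.22 (0.54) and −0.69 (0.28), with means of 1.41, 1.38 and 12.6 CPM in WT. *Gldc*, the decarboxylase of glycine cleavage, had −1.65 (SE 0.65) and 2.22 CPM, with *Dld* at 0.08 (0.12) and *Gcsh* at −0.11 (0.25). *Gnmt*, *Bhmt2* and *Bhmt* of the methionine cycle had −0.90 (SE 0.54), −0.61 (0.45) and −0.93 (0.69). The hepatoblast marker sum was 108 and 262 CPM in the KO libraries and 241.4 to 1017 CPM in WT, and its part in these values was not tested. With maturation of WT cells, 10 of 34 tested genes of the 4 lists rose and 13 fell, against 30.6% and 35% of all genes, and on the scale of total counts 3 rose and 21 fell, against 13.3% and 64.3%. The folate carrier *Slc19a1* and the polyglutamate synthase *Fpgs*, which bring folate into cells and hold it there, fell, with log2 fold changes of −4.31 (SE 0.29) and −3.98 (SE 0.23), and thymidylate synthase *Tyms* rose by 1.49 (SE 0.18). *Slc1a5* rose by 3.49 (SE 0.27). On total counts *Tyms* had 0.47 and *Slc1a5* 2.44, and both were still called higher. These 4 were chosen after their values were seen.

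The members lie apart in the mm39 build: *Phgdh* (ENSMUSG00000053398.12) at chr3:98220486-98247306, *Psat1* (ENSMUSG00000024640.10) at chr19:15882042-15924701, *Psph* (ENSMUSG00000029446.15) at chr5:129842622-129864513 and *Shmt1* (ENSMUSG00000020534.15) at chr11:60678930-60702544. *Shmt2* (ENSMUSG00000025403.6) lies at chr10:127352992-127358313 and *Aldh1l2* (ENSMUSG00000020256.15) at chr10:83323314-83370004, all 6 on the minus strand. On the plus strand are *Mthfd1* (ENSMUSG00000021048.8) at chr12:76302072-76366577, *Mthfd1l* (ENSMUSG00000040675.18) at chr10:3923118-4117081 and *Mthfd2l* (ENSMUSG00000029376.9) at chr5:91078976-91169227, and *Mthfd2* (ENSMUSG00000005667.9) lies on the minus strand at chr6:83282673-83302890. Other genes cover 4.7% of the exon sequence of *Shmt1*, 1.0% of *Shmt2* and 0.8% of *Mthfd1*, and *Phgdh* has 1 annotated pseudogene, *Phgdh-ps1*, with which it could share reads.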

How the data were processed

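Polyadenylated RNA was amplified (SMARTer) from the sorted cells for each library. The authors mapped reads to mm39 with STAR 2.7.9 and deposited raw counts per gene from featureCounts 1.6.4 (Ensembl v104). Per the file headers, read pairs were counted without strand, and multi-mapping pairs and pairs that hit more than 1 gene were dropped. GENCODE mouse release 39 gave symbols for 54749 of the 55416 genes. The table holds 4 library columns that match no sample used here.

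Genes with a mean of over 10 normalized counts in the libraries of a comparison were scaled by TMM, and edgeR 4.0.16 (R 4.3.3) gave the quasi-likelihood tests (glmQLFit, glmQLFTest), without covariates, with Benjamini-Hochberg adjustment over all genes tested and a threshold of 0.05. CPM used TMM-scaled totals over the 16 libraries. Alternatives were DESeq2 1.42.0, sex as a covariate, all libraries in 1 fit, other scalings, no filter, an embryo block and leaving out embryos. The newer quasi-likelihood method, scaling to total counts and the fits without the WT embryos with globin-rich S1 libraries were added after the data were seen. P-values measure the spread between embryos, and with 2 in a group the precision is limited by their number rather than by depth.

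All members are named. Named neighbours are the 3 tested genes of each list with the smallest p in KO against WT at S3, further neighbours were named after their values were seen, and named look-alikes the 5 non-members with the highest r. The members and lists were chosen with earlier results of these data known. S1 and S3 libraries with the same number come from one embryo. Their deviations from the group means correlated over 13402 genes at r = 0.285, 0.403, 0.408 and 0.0515 in WT embryos 1, 5, 8 and 0, 0.535 in KO and 0.071 in Het. Promoter sequences are from RefSeq (table on GRCm38.p6), placed on GRCm39 by exact match. *Aldh1l2* has no entry. The scripts were tested on simulated counts.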

Additional observations from a re-analysis of the deposited data

Results flagged for a closer look

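One value stood out from its group by Dixon's test, which picks about 1 in 20 groups by chance. *Psph* had 52.6 CPM in the S1 library of WT embryo 8, far below the 75.7 to 79.4 CPM of the other 3 WT S1 libraries. The same library had 1.00% globin counts, and the S1 library of WT embryo 0 had 1.07% globin counts and 78.9 CPM of *Psph*. The part of the globin share in the *Psph* value was not tested. Without WT embryo 8 the *Psph* log2 fold change in KO against WT at S1 was 0.49 (SE 0.11), with an adjusted p of 0.95 in edgeR and of 0.324 to 1 over all settings.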

How the results depend on the processing

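The number of embryos sets what these comparisons can show, with 2 KO, 2 Het and 4 WT embryos and 1 KO embryo of each sex. Of 855 fold changes recomputed under an alternative, 806 kept their direction. For KO against WT at S3 the number of members called was 0, and it became 4 with DESeq2, with sex as a covariate, with DESeq2 and sex, and with no filter on low counts, 2 with all 16 libraries in 1 fit and 1 with the newer quasi-likelihood method. For Het against WT at S3 it was 0 and became 2 with sex as a covariate, with DESeq2 and sex, and with male WT embryos only. The cause was not tested. With the embryo as a replicate block, 7 members were called between the stages of WT and 0 in the interaction, as without it, while over all genes the stage calls went from 4142 higher and 4728 lower to 4499 and 4911. The comparisons between genotypes hold 1 library of each embryo and could not take a block. With 1 embryo left out at a time, 6 to 8 members were called between the stages of WT, against 25.3% to 31.7% of all genes called higher and 29.4% to 33.7% lower.

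Every fold change that turned its direction belonged to a gene that was not called. In Het against WT at S3, *Shmt2* had a log2 fold change of −0.0073, and of 0.0020 in DESeq2, 0.15 with sex as a covariate, 0.17 in DESeq2 with sex, 0.0035 with all libraries in 1 fit, 0.0021 with median-of-ratios size factors, 0.0018 without the filter and 0.16 with male WT embryos only. *Psat1* had −0.14, and 0.040 with sex as a covariate, 0.055 in DESeq2 with sex and 0.043 with male WT embryos only, and *Phgdh* had 0.04, and −0.0084 with scaling to total counts. In Het against WT at S1, *Shmt2* had 0.10, and −0.0085, −0.018 and −0.0022, and *Mthfd1* had 0.10, and −0.14, −0.15 and −0.14, with sex as a covariate, in DESeq2 with sex and with male WT embryos only. The fits without WT embryos 0 and 8, whose S1 libraries held over 0.9% globin, left out both male WT embryos. The Het values at S1 then set male Het against female WT embryos, so that genotype and sex cannot be told apart. They became 0.32 for *Mthfd1l*, 0.020 for *Mthfd2* and −0.10 for *Mthfd2l*. Against male WT embryos alone, the S1 log2 difference of *Mthfd1l* in Het was −0.36. The KO values at S1 became 0.12 for *Mthfd1* and 0.32 for *Mthfd1l*, and the stage difference of *Mthfd1l* in WT became 0.087.

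With 1 embryo left out at a time, the log2 fold changes that crossed 0 ranged as follows. In KO against WT at S3, *Mthfd1* ranged from −0.067 to 0.25 and *Mthfd2l* from −0.39 to 0.58. In KO against WT at S1, *Shmt2* ranged from −0.060 to 0.14, *Shmt1* from −0.29 to 0.10, *Mthfd2l* from −0.33 to 0.21, *Mthfd1* from −0.30 to 0.059 and *Mthfd1l* from −0.23 to 0.21. In Het against WT at S3, *Phgdh* ranged from −0.051 to 0.10 and *Shmt2* from −0.14 to 0.12. In Het against WT at S1, *Shmt2* ranged from −0.12 to 0.28, *Mthfd1* from −0.073 to 0.28, *Mthfd1l* from −0.27 to 0.19 and *Mthfd2l* from −0.073 to 0.19. The stage difference of *Mthfd1l* in WT ranged from −0.31 to 0.077. In the interaction, *Mthfd2l* ranged from −0.067 to 0.32, *Mthfd1* from −0.059 to 0.45 and *Mthfd2* from −0.061 to 0.14.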

Other observations

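Of the 7 tested genes of the methionine cycle, 3 rose and 2 fell with maturation of WT cells on the TMM scale, against 30.6% and 35% of all genes tested. On the scale of total counts 0 rose and 3 fell (13.3% and 64.3% of all genes), and *Gnmt* (1.24, adjusted p = 0.0518) and *Bhmt* (1.47, adjusted p = 0.0622, edgeR) were above 0 and not called. *Mat2a*, the catalytic subunit of methionine adenosyltransferase, fell by 1.69 on the log2 scale from S1 to S3 (SE 0.13), and *Ahcy*, which clears the product of methylation reactions, fell by 1.30 (SE 0.15). *Mat2b*, the regulatory subunit, had a log2 fold change of 0.80 (SE 0.12) on the TMM scale and of −0.22 (SE 0.11, adjusted p = 0.0966, edgeR) on total counts, so that its direction depends on the scaling. The other 2 called higher on the TMM scale were the liver enzymes *Gnmt* (log2 fold change 2.23, SE 0.54) and *Bhmt* (2.46, SE 0.65), which had 0.767 and 2.85 CPM on average in WT S3 libraries. The hepatoblast markers summed to 68.4 to 393 CPM in the WT S1 libraries and 241.4 to 1017 CPM in the WT S3 libraries, and their part in these 2 values was not tested.

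Of the 14 tested genes of the folate list, 4 rose and 6 fell from S1 to S3 on the TMM scale, against the same shares of all genes (30.6% and 35%), and on total counts 1 rose and 9 fell, against 13.3% and 64.3% of all genes. The mitochondrial folate carrier *Slc25a32* fell by 1.93 (SE 0.16), as did *Mtfmt* (log2 fold change −1.35, SE 0.19), which formylates the initiator tRNA of mitochondria. *Gcsh*, the carrier protein of glycine cleavage, fell by 3.42 (SE 0.25), while *Dld*, the subunit shared with other dehydrogenase complexes, had a log2 fold change of 0.04 (SE 0.12) and, on total counts, of −0.98. These genes were picked for mention after their values were seen, and differences are on the TMM scale where no other is named.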
